A study of Mus musculus with 10 samples.

Results

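The Wnt ligands, their receptors and co-receptors, the R-spondins and their Lgr receptors, the secreted Wnt antagonists, the Axin scaffolds and the TCF/LEF nuclear factors were followed through 5 types of cells from the mouse left atrial appendage. The members were matched by gene symbol, as every Wnt, Fzd, Sfrp, Dkk and Rspo gene, Lgr4 to Lgr6, Lrp5, Lrp6, Axin1, Axin2, Wif1, Lef1, Tcf7, Tcf7l1 and Tcf7l2, and 53 of the 36172 genes in the deposited table matched. Wnt proteins are secreted, lipid-modified signals that bind Frizzled receptors, encoded by the Fzd genes. With the co-receptors Lrp5 or Lrp6 this frees β-catenin from a destruction complex built on Axin, so that it reaches TCF/LEF factors on the DNA. Without β-catenin, Wnts such as Wnt5a and Wnt11 act on cell shape and polarity. R-spondins acting on Lgr receptors keep Frizzled proteins at the cell surface, and Sfrp proteins and Wif1 bind Wnts outside the cell. Dkk proteins such as Dkk2 bind the Lrp co-receptors. In the heart the pathway is best known from embryonic development, from the epicardium and from the fibroblasts of injured tissue.

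RNA was sequenced from cells that grew out of atrial appendage pieces of C57BL/6 mice aged 8 to 12 weeks, with 2 libraries per type. Type A was primary cells after 3 digestion steps of 5 min with 0.25% trypsin and 0.1% collagenase D, and carries the label c-kit+/CD45-. Type B was primary cells after the weaker digestion, with 0.05% trypsin and the same collagenase D, labelled c-kit+/CD45+. C1, C2 and C3 are described as passages 6, 8 and 10 of B-type cells, with the labels c-kit+/CD45- for C1 and c-kit-/CD45- for C2 and C3. c-kit is a receptor found on many stem and progenitor cells and on mast cells, and CD45 is the surface protein of white blood cells. Digestion strength and CD45 status cannot be told apart between A and B, nor can passage and c-kit status between C1 and the later cultures. Whether the replicate libraries stem from different animals or cultures is not in the labels. Each p-value therefore measures only the spread between replicate libraries, pooled over all types in the main fit, which may be technical. In such bulk samples, fewer cells of a type and less RNA per cell cannot be told apart.

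The deposited values were read as log2 normalized reads, raised to a floor of 1 read where lower, minus the median of each gene over the 10 libraries. They are called centred values here, and a difference of 1 is a 2-fold change. Levels in normalized reads are known only for genes whose lowest value marks the floor, so levels are not compared between genes. Depth per library was known only in relative terms and spanned 11.5-fold, with C3 deepest. The limit that a count of 0 allows, taken as 3 reads, was 5.04 and 5.75 normalized reads in A, 6.88 and 5.43 for B, 3.02 and 2.00 for C1, 6.12 and 3.11 for C2, and below the floor in C3. Some libraries stood apart. A replicate 2 exceeded A replicate 1 in all 15 tested markers of white blood cells, and the sum over the 5 of known level was 417 against 17.1 normalized reads, beside 24510 and 23730 for B and 5.07 to 11.6 in the cultures. Kit, the c-kit gene, had 3.36 normalized reads in A replicate 1, under that library's limit, and 72.3 in A replicate 2. The 4 Y-linked genes Ddx3y, Eif2s3y, Kdm5d and Uty had 78.7 to 618 normalized reads in A and B, 169 to 1344 in C1 and 20.4 to 86.2 in C2, and were at the floor in both C3 libraries. Xist, the RNA of the inactive X chromosome, had centred values of 1.09 and 4.12 for A, 4.92 and 4.74 for B, -4.82 and -5.24 for C1, -5.80 and -4.61 for C2, and -0.17 and 0.17 for C3. Whether the cultures descend from the same cells, as their labels say, was not tested. Of 10 heart muscle markers, Myh6 and Myh7 were listed at 0 in every library and 5 were tested. Among the tested ones, Myl7 had 50.4 and 41.4 normalized reads in C3 and at most 1.34 in any other library.

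Of the 53 members, 32 were tested, 13 were removed by a filter that kept genes with at least 10 normalized reads in 2 libraries, and 8 were listed at 0 throughout. The filter can act only on genes of known level. By role, 9 of 19 ligands, 10 of 12 receptors and co-receptors, 3 of 7 R-spondins and Lgr receptors, 5 of 9 antagonists, both scaffolds and 3 of 4 nuclear factors were tested. Those listed at 0 were Wnt1, Wnt3a, Wnt7b, Wnt8b, Wnt9b, Fzd10, Lgr5 and Dkk4, which include Wnt1 and Wnt3a, the classic activators of β-catenin signalling, and Lgr5, the stem cell marker of the gut. Among the 13 removed members, 4 exceeded 10 normalized reads in a library. Rspo2, an R-spondin of limb and lung development, had 257 normalized reads in A replicate 1 and 1.92 in A replicate 2. Lef1, a nuclear partner of β-catenin, had 17 in A replicate 2 and 1 in A replicate 1. Rspo1 reached 11.3 in C2 replicate 2, while Wnt2 reached 15.0 in A replicate 1.

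The moderated F test of limma called 27 of the 32 tested members, 84.4%, as different among the 5 types, at an adjusted p under 0.05 and a range of type means of at least 1. Of all 14254 genes tested, 68.7% were called by the same rule. The median range of type means was 2.66 for the members and 1.62 for all genes tested. Among the 27 called members the highest type mean was in A for 12, in C2 for 6, in C1 for 5 and in C3 for 4, and none was highest in B. Wnt10a, Wnt2b, Fzd5, Axin1 and Axin2 were called neither in the F test nor in any of the 6 pairwise comparisons. The comparisons share types, so their counts are not independent.

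**Figure D1:**
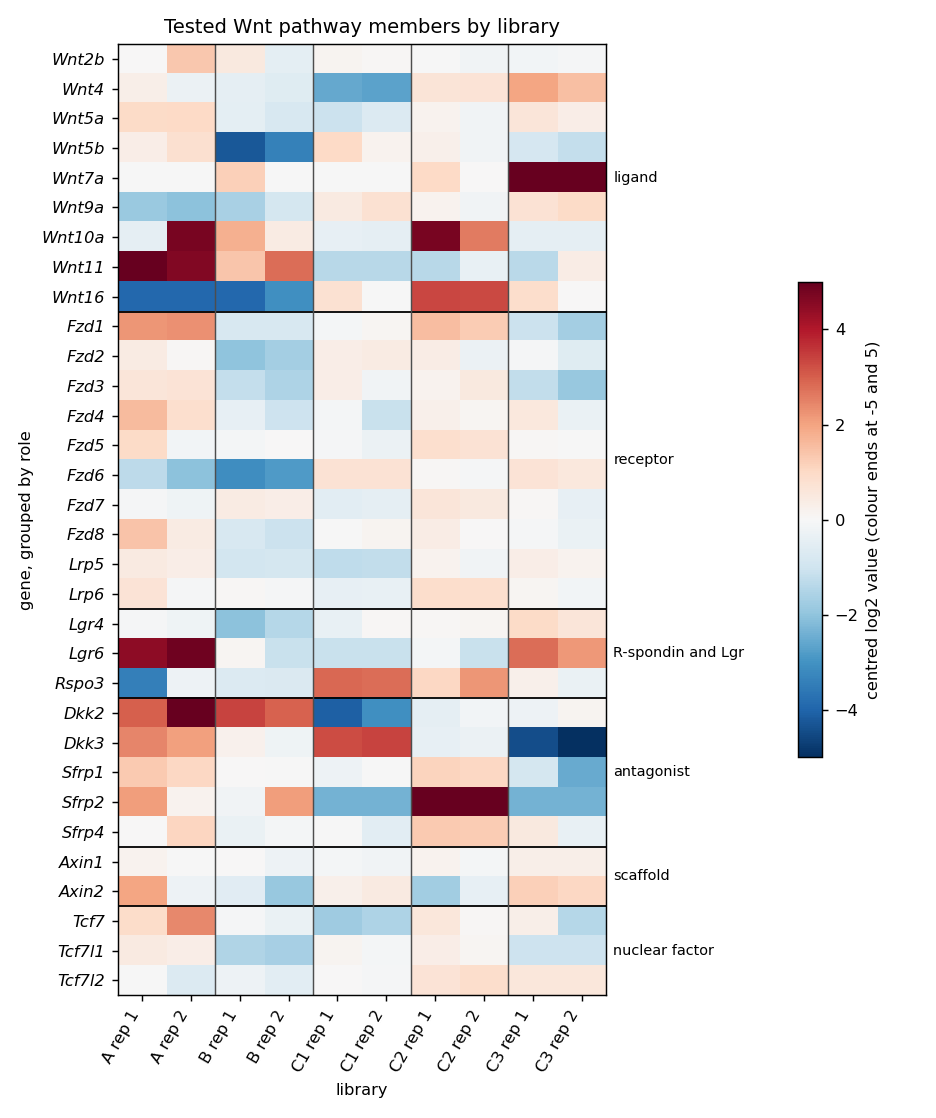
Centred log2 values of the 32 tested members (rows, by role) in the 10 libraries (columns, by type). Red is above and blue below the median of each gene, the colours end at -5 and 5, and the B columns are blue for most receptors while Sfrp2 is red in C2 and Wnt7a in C3.

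B held less transcript of many Wnt receptors and of several ligands than A. In the pairwise comparisons calls required a limma adjusted p under 0.05 and a log2 difference of 1 or more in either direction, and between B and A 14 of the 32 members were called, all lower in B. Of all genes tested, 26.9% were called, 14.5% higher and 12.4% lower in B. The members' median difference was -1.23, against 0.01 over all genes tested. Lower in B were 7 of 10 receptors, from Fzd6 at -1.29 to Fzd1 at -3.04, the ligands Wnt5a, Wnt5b and Wnt11, the R-spondin receptors Lgr4 and Lgr6, the antagonist Dkk3 and the nuclear factor Tcf7l1. Both Axin genes did not pass. Without A replicate 2, which carries the white blood cell transcripts, 16 members fell and Rspo3 rose (2.72, limma adjusted p = 0.0061), and without B replicate 1 Wnt9a rose (1.06, limma adjusted p = 0.0305). In the same comparison all 15 white blood cell markers rose, 7 of 11 fibroblast markers fell, and 6 of 11 epicardial and mesothelial markers rose while 1 fell. Smooth muscle markers fell in 3 of 7 cases, and 2 of 4 Schwann cell and neural crest markers rose. Endothelial markers rose in 2 of 8 cases and fell in 1. The part of these cell types in the Wnt differences was not tested.

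**Figure D2:**
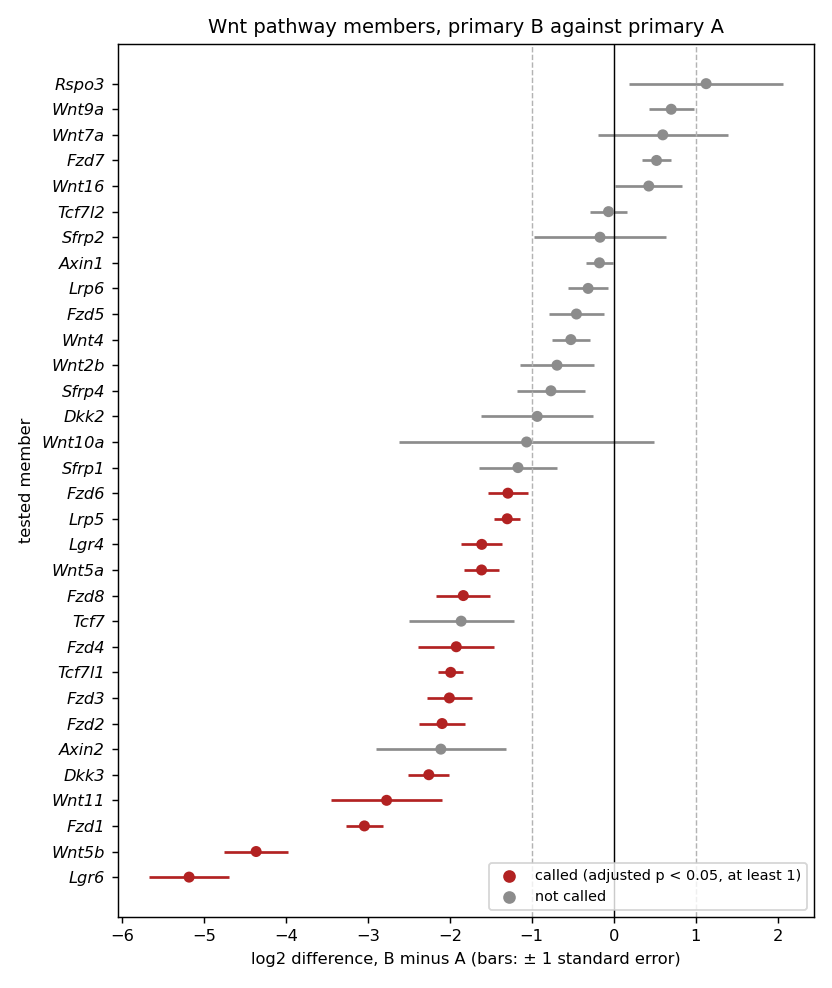
Log2 difference of B minus A for each of the 32 tested members, with bars of ± 1 standard error from limma. The 14 called members (red) all lie below -1, and for Wnt5b and Lgr6, which are at the limit of 3 reads in B, the plotted value is a fitted one and no measure of the fold.

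Of those receptors Fzd2, Fzd3 and Fzd6 were higher in C1, the earliest culture, than in B. Between C1 and B, 14 members were called, 10 higher and 4 lower in C1, where 33.7% of all genes tested were called, 12.6% higher and 21.1% lower. The 10 that rose were Fzd2, Fzd3, Fzd6, Lgr4, Rspo3, Wnt5b, Wnt9a, Wnt16, Dkk3 and Tcf7l1. The 4 that fell were Wnt4, Wnt11, Dkk2 and Sfrp2. The members' median difference was 0.04, and that of all genes -0.07. Under quantile normalization 50.6% of all calls were rises, against 37.4% here, while the members again gave 10 rises and 4 falls. In this comparison 15 of 15 white blood cell markers fell, to sums of 6.67 and 8.05 normalized reads over the 5 of known level, with Ptprc, the gene of CD45, at or within 1 read of the floor in C1. Of 8 endothelial markers 6 fell and 1 rose, and of 11 fibroblast markers 4 fell and 1 rose. Only falls were called for 4 of 11 epicardial and mesothelial and 3 of 7 smooth muscle markers. The same held for 1 of 5 heart muscle and 3 of 4 Schwann cell and neural crest markers. The part of these cell types in the result was not tested. Lower Xist and higher Y-linked levels in C1 separate the same libraries.

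Set against A, which shares its sort labels, C1 had 15 called members, 5 higher and 10 lower. Over all genes tested 26.6% were called, 10.1% higher and 16.6% lower. Higher in C1 were Fzd6, Wnt9a, Wnt16, Rspo3 and Dkk3, and lower were Fzd1, Fzd4, Lrp5, Lgr6, Wnt4, Wnt5a, Wnt11, Dkk2, Sfrp2 and Tcf7. The median difference was -0.58 for the members and -0.04 for all genes. Rises made up 37.7% of all calls, and 51.3% under quantile normalization, where the members gave 5 rises and 11 falls. Fitting only the A and C1 libraries gave 3 rises and 9 falls. Fibroblast markers fell in 8 of 11 cases, white blood cell markers in 4 of 15, endothelial markers in 4 of 8, heart muscle markers in 2 of 5 and Schwann cell and neural crest markers in 2 of 4. Smooth muscle markers fell in 4 of 7 cases and rose in 1, and epicardial and mesothelial markers rose in 5 of 11 and fell in 3. Xist was lower and Y-linked levels were higher in C1 than in A, again without overlap.

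From C1 to C2 most called members rose. In total 10 were called, 9 higher and 1 lower in C2, and 20.4% of all genes tested, 12.2% higher and 8.18% lower. The 9 were the receptors Fzd1, Fzd7, Lrp5 and Lrp6, the ligands Wnt4 and Wnt16, and the antagonists Dkk2, Sfrp2 and Sfrp4, while Dkk3 fell. The members' median difference was 0.66, against 0.00 over all genes. Under quantile normalization 49.2% of all calls were rises, against 59.9% here, and the members gave 14 rises and 1 fall. Fibroblast markers were called higher in 5 and lower in 2 of 11 cases, and 4 of 11 epicardial and mesothelial markers rose. Of 8 endothelial markers 3 rose and 1 fell, and 2 of 7 smooth muscle markers and 1 of 5 heart muscle markers rose. Schwann cell and neural crest markers rose in 1 of 4 cases. The lower Y-linked levels in C2 separate the same libraries.

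C3 differed from C2 in 10 members, 3 higher and 7 lower in C3, where 27.9% of all genes tested were called, 11.6% higher and 16.2% lower. Wnt4, Wnt7a and Lgr6 rose, and Wnt16, Fzd1, Fzd3, Dkk3, Sfrp1, Sfrp2 and Tcf7l1 fell. The median difference was -0.39 for the members and 0.00 for all genes. Quantile normalization moved the rises among all calls from 41.7% to 52.7%, and gave 3 rises and 9 falls of members. All 11 fibroblast markers fell in this comparison, 3 of 7 smooth muscle markers fell and 6 of 11 epicardial and mesothelial markers rose. Of 5 heart muscle markers 1 rose and 1 fell. Endothelial markers rose in 1 of 8 cases and fell in 1, and 1 of 4 Schwann cell and neural crest markers fell. The difference in Y-linked transcripts separates the same libraries.

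Between C3 and C1, 13 members were called, 6 higher and 7 lower in C3, and 34.8% of all genes tested, 17.1% higher and 17.7% lower. Wnt4, Wnt5a, Wnt7a, Lrp5, Lgr6 and Dkk2 rose, and Wnt5b, Fzd1, Fzd3, Rspo3, Dkk3, Sfrp1 and Tcf7l1 fell. Quantile normalization gave 6 rises and 4 falls, and the falls numbered 3 without C1 replicate 1 and 4 without C3 replicate 2. Of 11 fibroblast markers 7 fell and 1 rose, and of 8 endothelial markers 3 fell and 1 rose. Rises alone were called for 8 of 11 epicardial and mesothelial and 2 of 5 heart muscle markers. Smooth muscle markers rose in 1 of 7 cases and fell in 1. Falls alone were called for 1 of 15 white blood cell and 1 of 4 Schwann cell and neural crest markers. Y-linked transcripts and Xist differ between these libraries too. The members' median difference was 0.29, and that of all genes 0.00.

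**Figure D3:**
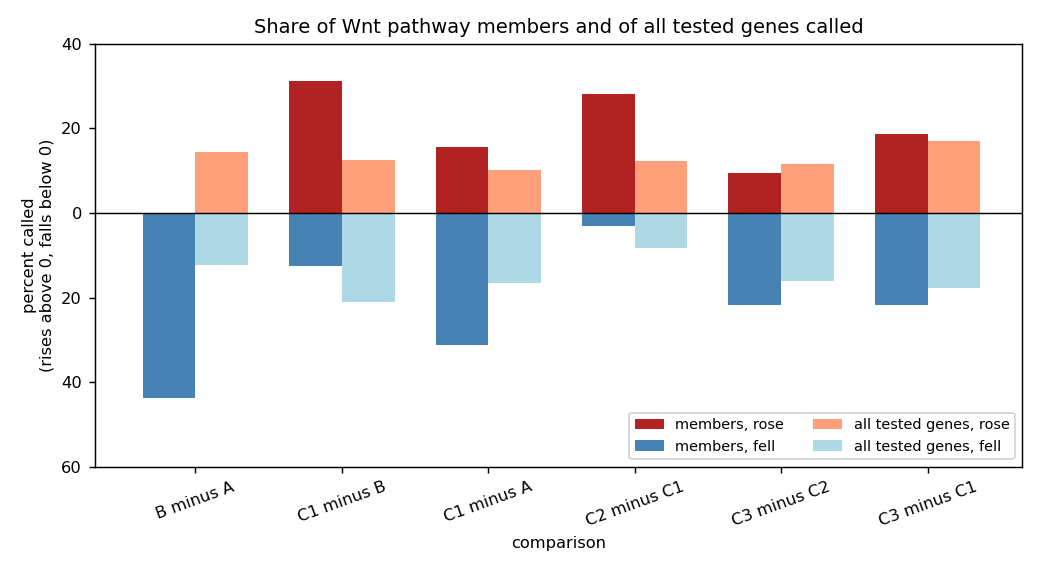
Percent of the 32 tested members (dark bars) and of all 14254 genes tested (light bars) called by limma in each comparison, rises above 0 and falls below. In B minus A the members have falls and no rise, 14 of 32, against 12.4% falls and 14.5% rises of all genes.

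The ligands that separated the types most were Wnt16, Wnt7a and Wnt11, each near the floor in part of the types. Wnt16 (chr6:22288178-22298522 in mm10), a ligand studied in bone and joints, had 1 and 1 normalized reads in A, 1 and 1.81 for B, 26.2 and 15.1 for C1, 155 and 151 for C2, and 28.3 and 15.6 for C3. It was not detectable above the limits in the primary cells and was highest in C2, with no overlap between C2 and the other cultures. C1 was at least 3.59-fold above A (limma adjusted p = 0.000451), and its reads were 19.5-fold those of B, where 1 read was found (95% exact counting interval 3.33 to 784; limma adjusted p = 0.000354). Intervals and limits of this kind cover counting error only. The rise to C2 was 2.94 ± 0.41 (SE, here and below; limma adjusted p = 0.00231) and the fall to C3 -2.87 ± 0.41 (limma adjusted p = 0.00174).

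Wnt7a (chr6:91363981-91411353), a ligand of limb and reproductive tract development, was seen in C3. The C3 libraries had 36.2 and 202 normalized reads, and the other 8 libraries had between 1 and 2.29, all under their limits. Wnt7a passed the filter only through the C3 libraries, so its adjusted p-values are no separate support for a high level there. C3 was at least 39.4-fold above C1 (limma adjusted p = 0.000627) and 94.6-fold above C2, where 2 reads were found (95% exact counting interval 26.1 to 782; limma adjusted p = 0.00147). The C3 replicates differed between themselves by more than 5-fold.

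Wnt11 (chr7:98835084-98854747), which acts on polarity and cell movement in the developing heart, was highest in A and low in the cultures. It had 89.1 and 65.1 normalized reads in A, 6.88 and 18.1 for B, the floor of 1 in both C1 libraries, 1 and 2.07 for C2, and 1.03 and 3.38 for C3. The A libraries lay above B and every culture. B replicate 1 was at its limit, while C3, the deepest type, was above its own limit. A exceeded C1 at least 25.5-fold (limma adjusted p = 0.000726) and B exceeded C1 at least 4.13-fold (limma adjusted p = 0.0049). Set against A, B gave -2.77 ± 0.68 (limma adjusted p = 0.0164), a call lost without A replicate 1 (adjusted p = 0.062) or without B replicate 1 (adjusted p = 0.0977), and with A and B fitted alone (adjusted p = 0.056).

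Wnt5b (chr6:119432531-119544824), a ligand of polarity signalling and of cartilage growth, was lowest in B. Its level was inferred from the spacing of whole reads, and came to 23.5 and 32.6 normalized reads in A, 1 and 1.81 for B, 37.3 and 21.4 for C1, 22.5 and 16.5 for C2, and 10.4 and 8.14 for C3. B was the low type, at 1 read in all, while A and C1 overlapped. The reads of A were 27.4-fold those of B (95% exact counting interval 4.57 to 1118), and those of C1 also 27.4-fold (4.76 to 1097), with limma adjusted p-values of 0.000295 and 0.000173. C3 minus C1 was -1.62 ± 0.39 (limma adjusted p = 0.0112) and lost its call without C1 replicate 1 (adjusted p = 0.0674) or C3 replicate 2 (adjusted p = 0.0658), and C3 minus C2 did not pass (-1.07 ± 0.39, limma adjusted p = 0.061).

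**Figure D4:**
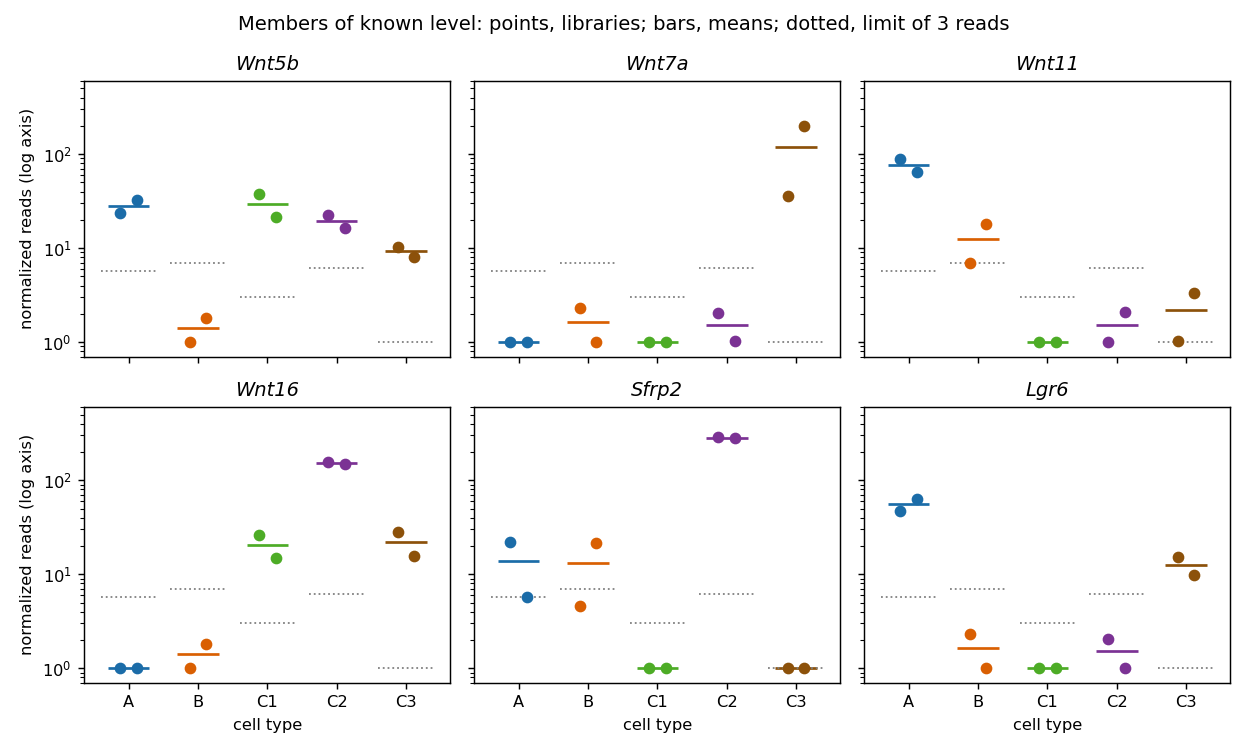
Normalized reads (log axis) of 6 members of known or inferred level in the 5 types, with a point per library, bars at the type means and dotted lines at the higher limit of 3 reads in each type (the floor of 1 in C3). Wnt16 and Sfrp2 are highest in C2, Wnt7a in C3, and Wnt11 and Lgr6 in A, while Wnt5b is lowest in B.

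Wnt4, Wnt5a and Wnt9a are known only by their differences. Wnt4 (chr4:137277635-137299501), a ligand of kidney and gonad development, had centred values of 0.29 and -0.29 for A, -0.44 and -0.60 for B, -2.55 and -2.67 for C1, 0.65 and 0.69 for C2, and 1.98 and 1.52 for C3. It was lowest in C1, with C2 and C3 above every other library. C1 minus A was -2.61 ± 0.23 (limma adjusted p = 0.000376) and C1 minus B -2.09 ± 0.23 (limma adjusted p = 0.000478). The rise from C1 was 3.28 ± 0.23 to C2 (limma adjusted p = 0.000219) and 4.36 ± 0.23 to C3 (limma adjusted p = 2.47e-05). The step of 1.08 ± 0.23 from C2 to C3 (limma adjusted p = 0.00954) fell to 0.85 and lost its call without C3 replicate 1.

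Wnt5a (chr14:28504543-28527448), the best-known ligand of polarity signalling, had centred values of 0.95 and 0.99 for A, -0.48 and -0.80 for B, -1.09 and -0.69 for C1, 0.19 and -0.19 for C2, and 0.62 and 0.33 for C3. A was highest, while B and C1 overlapped at the low end. B minus A was -1.61 ± 0.22 (limma adjusted p = 0.00154), C1 minus A -1.86 ± 0.22 (limma adjusted p = 0.000969) and C3 minus C1 1.36 ± 0.22 (limma adjusted p = 0.00196). C2 minus C1, at 0.89 ± 0.22, passed the p threshold (limma adjusted p = 0.0197) and not the size, which it did reach without C1 replicate 2 (1.09) or without C2 replicate 2 (1.07). Wnt9a (chr11:59306849-59333552), a ligand of joint formation, was low in the primary cells, at -1.84 and -2.07 for A and -1.62 and -0.89 for B, and higher in all cultures, at 0.45 and 0.74 for C1, 0.19 and -0.19 for C2 and 0.71 and 0.96 for C3. C1 exceeded A by 2.55 ± 0.27 (limma adjusted p = 0.000704) and B by 1.85 ± 0.27 (limma adjusted p = 0.00151).

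Wnt10a (chr1:74792019-74804176), a ligand of teeth and skin, was not called and its replicates disagreed. It had 36.2 normalized reads in A replicate 2 and 1 in A replicate 1, 36.7 and 8.28 for C2, 4.59 and 1.81 for B, and at most 1.01 in C1 and C3. C2 minus C1 gave a limma adjusted p of 0.0799 and C3 minus C2 one of 0.0678. Without A replicate 1 it was called lower in B than in A (limma adjusted p = 0.0221) and lower in C1 (limma adjusted p = 0.0059). Wnt2b, the last tested ligand, stayed within a range of type means of 0.79, and 1.34 in A replicate 2 was its highest centred value. Without A replicate 1 it too was called lower in B than in A (-1.35, limma adjusted p = 0.0307, against -0.69) and lower in C1 (-1.24, limma adjusted p = 0.0356, against -0.58).

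The bases before an annotated transcription start are shown for 6 members. They are Wnt11, highest in A, Wnt5b with its low value in B, Wnt16 and Sfrp2, highest in C2, and Wnt7a, seen in C3. The last is Axin2, which β-catenin signalling is known to induce. Sequences are from RefSeq for GRCm38.p6, 250 bases up to the start, 5′ to 3′ on the strand of the gene. Capitals mark a match to the TCF/LEF motif CTTTGAT or CTTTGAA on either strand. Wnt11 and Wnt5b have several start sites, and the one shown was picked because its window holds the motif. The windows of Wnt5b, Sfrp2 and Axin2 lie inside the spans given for these genes, downstream of the outermost start.
Wnt11, chr7:98834862-98835111, plus strand: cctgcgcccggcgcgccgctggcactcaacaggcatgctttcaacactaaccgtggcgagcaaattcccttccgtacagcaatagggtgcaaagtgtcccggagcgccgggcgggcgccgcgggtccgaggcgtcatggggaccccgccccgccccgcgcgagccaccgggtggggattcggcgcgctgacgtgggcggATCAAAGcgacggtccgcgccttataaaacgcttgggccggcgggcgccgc
Wnt5b, chr6:119449387-119449636, minus strand: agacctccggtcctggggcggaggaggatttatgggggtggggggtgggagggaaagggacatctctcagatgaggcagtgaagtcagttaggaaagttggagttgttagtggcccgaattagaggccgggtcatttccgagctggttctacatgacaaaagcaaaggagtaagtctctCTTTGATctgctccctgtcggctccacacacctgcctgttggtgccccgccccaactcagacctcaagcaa
Wnt16, chr6:22287977-22288226, plus strand: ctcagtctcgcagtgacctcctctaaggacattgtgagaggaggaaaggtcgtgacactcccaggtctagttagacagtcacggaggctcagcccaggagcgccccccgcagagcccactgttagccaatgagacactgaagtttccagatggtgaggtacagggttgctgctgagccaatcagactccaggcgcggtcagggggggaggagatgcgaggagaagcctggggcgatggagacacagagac
Wnt7a, chr6:91411354-91411603, minus strand: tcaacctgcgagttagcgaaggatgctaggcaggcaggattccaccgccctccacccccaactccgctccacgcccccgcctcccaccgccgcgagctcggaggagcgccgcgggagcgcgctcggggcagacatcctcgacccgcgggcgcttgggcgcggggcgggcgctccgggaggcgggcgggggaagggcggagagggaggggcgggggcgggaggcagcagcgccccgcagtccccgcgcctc
Sfrp2, chr3:83766071-83766320, plus strand: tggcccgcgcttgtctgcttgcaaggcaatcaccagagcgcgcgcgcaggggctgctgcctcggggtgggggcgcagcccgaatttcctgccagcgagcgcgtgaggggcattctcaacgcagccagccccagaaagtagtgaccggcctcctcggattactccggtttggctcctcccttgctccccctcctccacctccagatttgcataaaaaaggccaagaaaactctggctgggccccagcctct
Axin2, chr11:108920099-108920348, plus strand: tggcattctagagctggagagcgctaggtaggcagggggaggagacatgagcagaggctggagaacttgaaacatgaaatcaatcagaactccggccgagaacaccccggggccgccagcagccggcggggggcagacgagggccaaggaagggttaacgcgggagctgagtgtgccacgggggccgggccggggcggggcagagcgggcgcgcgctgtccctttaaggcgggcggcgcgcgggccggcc

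Over windows of 300 bases, which add 50 bases after the start, 35 members had 43 windows, and 3 of these, 6.98%, held the motif, for Wnt11, Wnt5b and Dkk1. Of 32851 windows over all genes, 8.65% held it, so the members' share was not above that of all promoters. The match in Wnt11 begins 51 bases and that in Wnt5b 71 bases before the start, and for both genes the other start sites in the table, 1 and 2 in number, had none. The member windows had a median GC content of 67.3% and a median of 25 CpG pairs, against 52.7% and 7 over all windows. These letters are a description, and no binding was measured.

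Receptors made up 7 of the 14 members that were lower in B than in A. Fzd1 (chr5:4753839-4758216), a receptor that can pass the β-catenin signal, had centred values of 2.22 and 2.27 for A, -0.78 and -0.81 for B, -0.12 and 0.12 for C1, 1.56 and 1.25 for C2, and -1.09 and -1.71 for C3. A lay above every other type, C2 next, and the C3 libraries were the lowest. The difference B minus A came to -3.04 ± 0.22 (limma adjusted p = 0.00016), C1 minus A -2.24 ± 0.22 (limma adjusted p = 0.000537), C2 minus C1 1.40 ± 0.22 (limma adjusted p = 0.00407), C3 minus C2 -2.80 ± 0.22 (limma adjusted p = 0.000217) and C3 minus C1 -1.40 ± 0.22 (limma adjusted p = 0.002). Under quantile normalization the last was -0.94, below the size of a call. C1 minus B, at 0.80 ± 0.22, did not reach the size of 1.

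Fzd2 (chr11:102604431-102608058), which binds Wnt5a among others, and Fzd3 (chr14:65192441-65262463), the latter a receptor of planar polarity and axon guidance, were lower in B than in A and in C1. Fzd2 had centred values of 0.42 and 0.06 for A, -2.02 and -1.70 for B, 0.32 and 0.41 for C1, 0.36 and -0.29 for C2, and -0.06 and -0.60 for C3. Its difference was -2.09 ± 0.29 for B minus A (limma adjusted p = 0.0016) and 2.22 ± 0.29 for C1 minus B (limma adjusted p = 0.000833). Fzd3 had 0.61 and 0.68 for A, -1.19 and -1.53 for B, 0.31 and -0.17 for C1, 0.17 and 0.50 for C2, and -1.24 and -1.90 for C3, so that B and C3 were the low types and overlapped. For Fzd3, B minus A was -2.01 ± 0.28 (limma adjusted p = 0.00171), C1 minus B 1.43 ± 0.28 (limma adjusted p = 0.00493), C3 minus C2 -1.91 ± 0.28 (limma adjusted p = 0.00193) and C3 minus C1 -1.65 ± 0.28 (limma adjusted p = 0.00251).

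Fzd6 (chr15:39006149-39038192), a receptor of tissue polarity, separated primary cells from cultures. It had -1.31 and -2.06 for A, -3.12 and -2.84 for B, 0.71 and 0.71 for C1, 0.05 and -0.05 for C2, and 0.67 and 0.51 for C3. All 6 culture libraries lay above all 4 primary ones. C1 exceeded B by 3.69 ± 0.25 (limma adjusted p = 5.83e-05) and A by 2.40 ± 0.25 (limma adjusted p = 0.000603). B minus A was -1.29 ± 0.25 (limma adjusted p = 0.00613), and -0.92 without A replicate 1, which is under the size of a call. With A and B fitted alone its adjusted p was 0.0797.

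Fzd4 (chr7:89404366-89410110), known as the Norrin receptor of blood vessels, had 1.57 and 0.83 for A, -0.40 and -1.04 for B, -0.09 and -1.12 for C1, 0.24 and 0.09 for C2, and 0.54 and -0.34 for C3. A was the highest type. In B minus A it was -1.92 ± 0.46 (limma adjusted p = 0.0157) and lost its call without A replicate 1 (adjusted p = 0.0671) or B replicate 2 (adjusted p = 0.0958). C1 minus A was -1.80 ± 0.46 (limma adjusted p = 0.019) and lost it without A replicate 1 (adjusted p = 0.0743) or C1 replicate 2 (adjusted p = 0.105). Neither call held when the 4 libraries compared were fitted alone (adjusted p = 0.0553 and 0.0912). Fzd8 (chr18:9212856-9216201), which binds several Wnts, had 1.41 and 0.40 for A, -0.80 and -1.06 for B, -0.03 and 0.14 for C1, 0.39 and 0.03 for C2, and -0.05 and -0.35 for C3, with B minus A at -1.84 ± 0.33 (limma adjusted p = 0.00483, and 0.0662 with A and B fitted alone). C1 minus A, at -0.85 for Fzd8, was called without A replicate 2 (-1.36, limma adjusted p = 0.0056). Fzd7 (chr1:59482147-59486955), a receptor of early embryonic and stem cells, had -0.07 and -0.22 for A, 0.41 and 0.35 for B, -0.54 and -0.44 for C1, 0.62 and 0.47 for C2, and 0.07 and -0.40 for C3. It rose from C1 to C2 by 1.04 ± 0.18 (limma adjusted p = 0.00555), which became 0.99 without C1 replicate 1 and 0.97 without C2 replicate 1, both under the size of a call. C1 minus B, at -0.87 ± 0.18, was under it too. Fzd5, a receptor of eye and gut development, was not called, with its largest type difference between C2 and C1 (0.94 ± 0.33, limma adjusted p = 0.0658). Without A replicate 2, Fzd5 was called lower in B than in A (-1.02, limma adjusted p = 0.004, against -0.45) and lower in C1 than in A (-1.13, limma adjusted p = 0.0032, against -0.57).

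The co-receptors Lrp5 and Lrp6 were lowest in C1. Lrp5 (chr19:3584825-3686585) had 0.47 and 0.33 for A, -0.90 and -0.90 for B, -1.27 and -1.22 for C1, 0.18 and -0.18 for C2, and 0.35 and 0.18 for C3. Both B and C1 lay below every library of A, C2 and C3. B minus A was -1.30 ± 0.16 (limma adjusted p = 0.00109), C1 minus A -1.65 ± 0.16 (limma adjusted p = 0.000491), C2 minus C1 1.25 ± 0.16 (limma adjusted p = 0.00173) and C3 minus C1 1.51 ± 0.16 (limma adjusted p = 0.000318). Lrp6 (chr6:134446476-134566913) had 0.69 and -0.07 for A, 0.07 and -0.08 for B, -0.40 and -0.38 for C1, 0.88 and 0.85 for C2, and 0.09 and -0.14 for C3. Its C2 libraries were above all others, and C2 minus C1 was 1.26 ± 0.24 (limma adjusted p = 0.00836). C1 minus A, at -0.70, was called for Lrp6 without A replicate 2 (-1.08, limma adjusted p = 0.0033).

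Among the R-spondins and Lgr receptors, Lgr6 (chr1:134983300-135105374), a marker of skin stem cells, had 47.5 and 63.6 normalized reads in A, 2.29 and 1 for B, 1.01 and 1 for C1, 2.04 and 1 for C2, and 15.2 and 9.72 for C3. It was above the limits only in A and C3, and these did not overlap. The reads of A were 54.0-fold those of B (95% exact counting interval 9.33 to 2166) and 68.0-fold those of C1 (18.0 to 574). C3 had 17.7-fold the reads of C2 (3.11 to 705) and 15.1-fold those of C1 (4.09 to 126). The limma adjusted p-values of these 4 differences were 0.000294 to 0.00256. Lgr4 (chr2:109917647-110014257), the widely expressed R-spondin receptor, had centred values of -0.05 and -0.22 for A, -2.05 and -1.44 for B, -0.36 and 0.05 for C1, 0.08 and 0.10 for C2, and 0.96 and 0.62 for C3. B was lowest, with B minus A at -1.61 ± 0.25 (limma adjusted p = 0.0026) and C1 minus B at 1.59 ± 0.25 (limma adjusted p = 0.0019). C3 minus C1, at 0.94, reached the size of a call without C1 replicate 2 (1.15) or C3 replicate 2 (1.11).

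Rspo3 (chr10:29453106-29535867), the R-spondin of blood vessel and placenta formation, had -3.43 and -0.24 for A, -0.68 and -0.74 for B, 2.86 and 2.81 for C1, 1.02 and 2.22 for C2, and 0.24 and -0.35 for C3. C1 was highest, and the A replicates were far apart. C1 minus A was 4.67 ± 0.94 (limma adjusted p = 0.00735), and 3.07 without A replicate 1, and lost its call with A and C1 fitted alone (adjusted p = 0.0824). C1 exceeded B by 3.54 ± 0.94 (limma adjusted p = 0.0175), and C3 minus C1 was -2.88 ± 0.94 (limma adjusted p = 0.0365). The last was not called without the filter either (adjusted p = 0.052). Neither of these 2 calls held when any library of its types was left out, with adjusted p-values of 0.0673 to 0.0747 and of 0.0899 to 0.148. C2 minus C1 (-1.22 ± 0.94, limma adjusted p = 0.356) and C3 minus C2 (-1.67 ± 0.94, limma adjusted p = 0.192) did not pass, and they moved to -0.62 without C2 replicate 1 and to -1.07 without C2 replicate 2.

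The antagonists Sfrp2, Dkk3 and Dkk2 had the widest ranges of type means among the tested members. The floor enters that of Sfrp2, and whether it enters those of Dkk3 and Dkk2 is not known, since their levels are unknown. Sfrp2 (chr3:83765750-83774314), a Wnt-binding protein of fibroblasts, had 21.9 and 5.75 normalized reads in A, 4.59 and 21.7 for B, 1.01 and 1 for C1, 288 and 279 for C2, and the floor of 1 in both C3 libraries. C2 was high in both replicates, while A and B overlapped. C2 exceeded C3 at least 283-fold, and its reads were 351-fold those of C1 (95% exact counting interval 96.7 to 2912), calls with limma adjusted p-values of 0.000448 and 0.000669. The lower level in C1 than in A (limma adjusted p = 0.0126) and in B (limma adjusted p = 0.0123) was no longer called without C1 replicate 1 (adjusted p = 0.0559 and 0.0545) or C1 replicate 2 (adjusted p = 0.0581 and 0.0538), nor for B without B replicate 2 (adjusted p = 0.0565). With a pseudocount of 5 both calls were lost (adjusted p = 0.0578 and 0.0613), and that against A with A and C1 fitted alone (adjusted p = 0.0606).

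Dkk3 (chr7:112116019-112159482), a Dickkopf relative whose action on Wnt signalling is less settled, was the member called in all 6 comparisons. Its centred values were 2.45 and 2.06 for A, 0.21 and -0.21 for B, 3.28 and 3.40 for C1, -0.41 and -0.30 for C2, and -4.44 and -5.01 for C3. C1 was highest and C3 lowest, and no types overlapped. C3 minus C1 was -8.06 ± 0.25 (limma adjusted p = 3.78e-06), made up of -3.70 ± 0.25 to C2 (limma adjusted p = 0.000187) and -4.37 ± 0.25 from there (limma adjusted p = 6.54e-05). Between B and A the difference was -2.26 ± 0.25 (limma adjusted p = 0.000694) and C1 minus B 3.34 ± 0.25 (limma adjusted p = 8.89e-05). C1 minus A, at 1.08 ± 0.25 (limma adjusted p = 0.0125), fell to 0.89 without A replicate 2 and had an adjusted p of 0.0666 without C1 replicate 2 and of 0.0507 with A and C1 fitted alone.

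Dkk2 (chr3:132085266-132180304), which binds the Lrp co-receptors, was high in primary cells, at 2.99 and 5.20 for A and 3.39 and 2.94 for B, and lower in cultures, at -4.07 and -3.07 for C1, -0.46 and -0.12 for C2, and -0.25 and 0.12 for C3. A and B overlapped and C1 was the lowest type. If C1 replicate 1 were at the floor of 1, C1 replicate 2 would have 2.00 normalized reads, its limit. The differences from C1 would then be no measure of the fold, and this was not tested. C1 minus A was -7.67 ± 0.69 (limma adjusted p = 0.000371) and C1 minus B -6.74 ± 0.69 (limma adjusted p = 0.000314). From C1 it rose by 3.28 ± 0.69 to C2 (limma adjusted p = 0.0111) and by 3.51 ± 0.69 to C3 (limma adjusted p = 0.00479), and the call for C2 was lost without C1 replicate 1 (adjusted p = 0.0667) or C2 replicate 2 (adjusted p = 0.0568). B minus A, at -0.93 ± 0.69 (limma adjusted p = 0.318), depended on the A replicates, with -2.04 without A replicate 1 (limma adjusted p = 0.0142) and 0.17 without A replicate 2 (limma adjusted p = 0.781).

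Sfrp1 (chr8:23411383-23449632) and Sfrp4 (chr13:19623175-19632825), both Wnt-binding proteins, moved less. Sfrp1 had 1.30 and 1.02 for A, 0.02 and -0.04 for B, -0.25 and -0.02 for C1, 1.09 and 1.03 for C2, and -0.86 and -2.52 for C3, where it was lowest. C3 minus C2 was -2.76 ± 0.47 (limma adjusted p = 0.00364, and 0.0518 with C2 and C3 fitted alone). C3 minus C1 was -1.56 ± 0.47 (limma adjusted p = 0.0282), with -0.73 without C3 replicate 2, -2.39 without C3 replicate 1, and adjusted p-values of 0.0783 and 0.116 without C1 replicates 1 and 2. It was not called under quantile normalization (-0.98, adjusted p = 0.0524) or with C1 and C3 fitted alone (adjusted p = 0.149). B minus A (-1.17 ± 0.47, limma adjusted p = 0.0905) and C2 minus C1 (1.20 ± 0.47, limma adjusted p = 0.0898) did not pass. Sfrp4 had 0.01 and 1.07 for A, -0.35 and -0.10 for B, -0.01 and -0.54 for C1, 1.29 and 1.26 for C2, and 0.50 and -0.39 for C3. C2 was its highest type, 1.55 ± 0.42 above C1 (limma adjusted p = 0.0273), a call lost without any of the 4 libraries (adjusted p from 0.0592 to 0.138). C3 minus C2 missed the threshold (-1.22 ± 0.42, limma adjusted p = 0.051), and passed it without C3 replicate 1 (-1.66, limma adjusted p = 0.0404). Without A replicate 1, Sfrp4 was called lower in B than in A (-1.29, limma adjusted p = 0.0444, against -0.77) and lower in C1 than in A (-1.35, limma adjusted p = 0.0348, against -0.82).

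**Figure D5:**
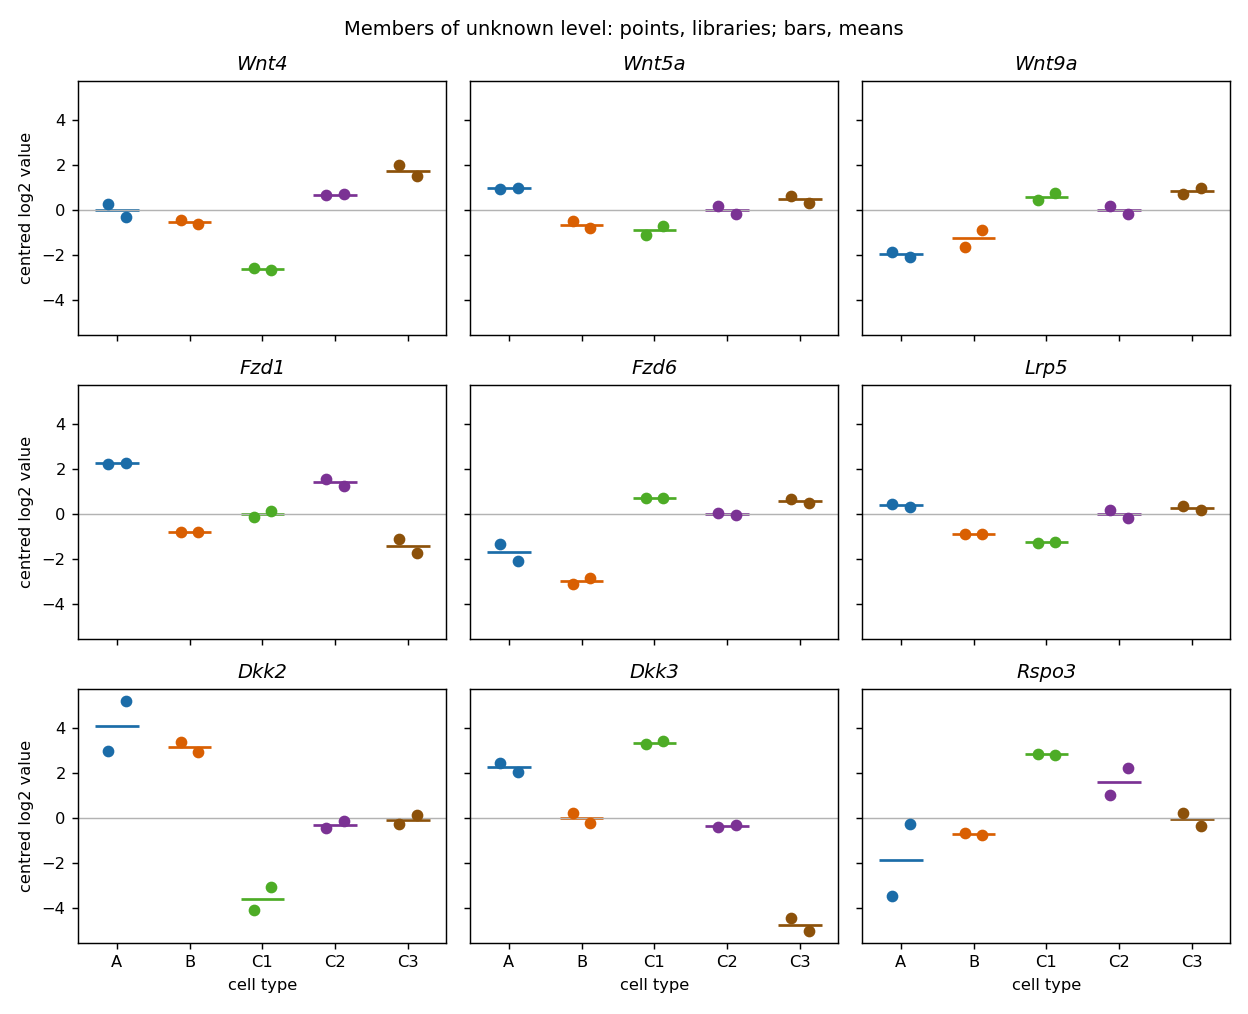
Centred log2 values of 9 members whose level is unknown, with a point per library and bars at the type means. Fzd1 and Lrp5 are lower in B than in A, Fzd6 and Wnt9a are higher in the cultures than in A and B, Wnt4 and Dkk2 are lowest in C1, and Dkk3 is highest in C1 and lowest in C3.

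The scaffolds did not pass any test. Axin1, the constant scaffold of the destruction complex, had a range of type means of 0.43. Axin2 (chr11:108917828-108950783), which β-catenin signalling induces and which feeds back on it, had an inferred 26.9 and 5.75 normalized reads in A, 4.59 and 1.81 for B, 8.06 and 9.35 for C1, 2.04 and 5.18 for C2, and 15.5 and 14.1 for C3. The types A and B did not overlap, and neither did C2 and C3. B minus A gave a limma adjusted p of 0.0751 and C3 minus C2 one of 0.0613, and by reads the ratios were 5.60-fold between A and B (95% exact counting interval 1.65 to 29.6) and 3.57-fold between C3 and C2 (1.60 to 9.92). Without A replicate 2, B minus A was called (-3.22, limma adjusted p = 0.0117), and without A replicate 1 it was -0.996 (limma adjusted p = 0.293).

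Of the nuclear factors, Tcf7l1 (chr6:72626371-72789045), which mostly represses its targets, had 0.47 and 0.33 for A, -1.52 and -1.67 for B, 0.12 and -0.10 for C1, 0.34 and 0.10 for C2, and -1.05 and -1.04 for C3. B was lowest and C3 next, without overlap with the other types. B minus A was -1.99 ± 0.15 (limma adjusted p = 0.000177), C1 minus B 1.60 ± 0.15 (limma adjusted p = 0.00023), C3 minus C2 -1.26 ± 0.15 (limma adjusted p = 0.000925) and C3 minus C1 -1.05 ± 0.15 (limma adjusted p = 0.00122). The last came to -0.94 without C1 replicate 1, and under quantile normalization it was -0.73 and C3 minus C2 -0.99, each under the size of a call.

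Tcf7 (chr11:52246527-52283383), a factor best known from T cells, had 0.92 and 2.39 for A, -0.07 and -0.35 for B, -1.78 and -1.55 for C1, 0.56 and 0.07 for C2, and 0.30 and -1.42 for C3. A was highest and C1 lowest, with C1 minus A at -3.32 ± 0.64 (limma adjusted p = 0.00643). B minus A (-1.86 ± 0.64, limma adjusted p = 0.0567) and C2 minus C1 (1.98 ± 0.64, limma adjusted p = 0.0509) missed the threshold. Without A replicate 1, B minus A was -2.60 and was called (limma adjusted p = 0.0242), and without A replicate 2 it was -1.12 (limma adjusted p = 0.219). C3 minus C1, at 1.10, was called without C3 replicate 2 (1.97, limma adjusted p = 0.0432). Tcf7l2 (chr19:55741797-55933659) ranged over 1.18 between type means and passed the F test (limma adjusted p = 0.0076), with its highest values of 0.67 and 0.89 for C2 and its lowest, -0.67, in A replicate 2. Its other values were 0.00 in A replicate 1, -0.26 and -0.54 for B, 0.00 and -0.04 for C1, and 0.56 and 0.56 for C3. C2 minus C1, at 0.80 ± 0.23, was under the size of a call.

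Of 83 other genes of the pathway in the table, a list of transducers, targets and modulators, 70 were tested. Between B and A 1 of the 70 rose and 27 fell, where 14.5% of all genes tested rose and 12.4% fell. Between C1 and B 18 rose and 10 fell, beside 12.6% and 21.1% of all genes, and between C1 and A 7 rose and 23 fell, beside 10.1% and 16.6%. From C1 to C2 14 rose and 6 fell, beside 12.2% and 8.18% of all genes, and from C2 to C3 8 rose and 24 fell, beside 11.6% and 16.2%. Between C3 and C1 19 rose and 18 fell, beside 17.1% and 17.7%. The median difference of the 70 was -0.77 in B minus A, 0.28 in C1 minus B, -0.70 in C1 minus A, 0.56 in C2 minus C1, -0.62 in C3 minus C2 and -0.13 in C3 minus C1, against -0.07 to 0.01 over all genes tested. The C2 minus C1 count of 20 fell to 11 without C2 replicate 1.

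Frzb, a secreted inhibitor related to the Sfrp proteins, had 7837 and 3785 normalized reads in A, 784 and 796 for B, 124 and 137 for C1, 59.2 and 92.0 for C2, and was at the floor for C3, so that C2 exceeded C3 at least 75.6-fold. For B minus A the value was -2.79 ± 0.35 for Frzb (limma adjusted p = 0.00117) and -4.12 ± 0.32 for Tpbg, a membrane inhibitor of Wnt signalling (limma adjusted p = 0.000187). Tle4, a corepressor of TCF factors, was the gene that rose in B (2.64 ± 0.22, limma adjusted p = 0.000228). Porcn, the enzyme that attaches the lipid to Wnt proteins, was 2.97 ± 0.32 higher in C1 than in B (limma adjusted p = 0.000426), and Daam2, a formin of polarity signalling, 3.58 ± 0.24 (limma adjusted p = 5.85e-05). Gpc3, a glypican that binds Wnts, rose from C1 to C2 by 6.85 ± 0.80 (limma adjusted p = 0.00123) and fell from C2 to C3 (-5.80 ± 0.80, limma adjusted p = 0.00156). Of 16 known targets of the pathway 0 rose and 7 fell in B minus A, beside 14.5% and 12.4% of all genes tested. In C1 minus B 3 rose and 5 fell (12.6% and 21.1% of all genes), and in C1 minus A 2 and 7 (10.1% and 16.6%). From C1 to C2 4 rose and 1 fell (12.2% and 8.18%), and from C2 to C3 3 and 5 (11.6% and 16.2%). Between C3 and C1 7 rose and 3 fell (17.1% and 17.7%). The median differences, in this order, were -1.67, -0.06, -1.21, 0.82, -0.53 and 0.89. Among these targets Ccnd1, encoding cyclin D1, rose from C2 to C3 by 2.00 ± 0.23 (limma adjusted p = 0.000828). Fosl1 and Gja1 were higher in C3 than in C1 by 5.44 ± 0.51 and 3.69 ± 0.13 (limma adjusted p = 0.000187 and 5.81e-06). Nkd1, a target that feeds back as an inhibitor, fell from C2 to C3 (-4.16 ± 0.75, limma adjusted p = 0.00452), and Wisp2 was lower in C3 than in C1 (-5.24 ± 0.44, limma adjusted p = 0.000129).

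The library kit does not mark strand, so reads of a gene and of an antisense gene over its exons cannot be told apart. In the GENCODE annotation an antisense gene covers 17.8% of the exon bases of Fzd5, 16.1% of Sfrp2, 13.1% of Rspo3 and 8.8% of Wnt11, and 3.2% to 4.6% of Fzd6, Axin2, Tcf7l1 and Wnt5a.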

How the data were processed

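RNA of 10 libraries, 5 cell types with 2 each by the sample titles, was prepared with a TruSeq RNA kit per the labels' protocols. Per the submitters' processing notes TopHat, DESeq and mm10 were used, with neither version nor role recorded. The read counter and its annotation, not given in the sources used here, are unknown. Values in the deposited table are on a log2 scale, and their reading as centred, floored normalized reads was inferred from the values: the median was 0 for 17821 of 17821 genes with values, another 18334 genes were 0 throughout, and 17 genes with a cell turned into a date were left out. The worth of 1 read came from the spacing of low values, of which 33.0% to 70.6% per library lay within 0.01 of whole reads, so depths and limits are estimates and no count test was run. Wnt5b and Axin2 levels were inferred where at least 7 of the other 9 libraries lay within 0.02 of whole reads. Floored libraries were counted at the most whole reads the floor holds.

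In R 4.3.3, limma 3.58.1 modelled the deposited log2 values of 14254 genes over all 10 libraries, with a mean per type, 5 residual and 1.93 prior degrees of freedom, two-sided tests and Benjamini-Hochberg adjustment within each of 6 comparisons. It was tested on simulated data. The spread of each gene was pooled over the types, although the replicates of A lay further apart than the others. Over all genes tested the root mean square replicate gap was 1.064 in A and 0.435 to 0.520 in the other types. For the tested members it was widest in A, at 1.386, and narrowest in C1, at 0.383. Standard errors and p-values may thus be too small in comparisons with A and too large among the cultures. No pseudocount was added, since the values are logarithms. Every member called in a test is given with its value in each library, and other pathway genes by the largest differences, up to 3 per direction and comparison, of which part are printed. The members and lists were chosen with earlier results of these data known. Coordinates and Entrez matches, for 53 of 53 members, are from RefSeq for GRCm38.p6, the assembly of mm10. Alternatives were quantile normalization, library medians, filters, a pseudocount, a replicate block, robust fitting, the 4 libraries compared alone, and leaving out each library.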

Additional observations from a re-analysis of the deposited data

How the results depend on the processing

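Of 76 called member differences, 55 kept their call under every alternative run, 21 lost it under at least 1, and none reversed. Among differences that were not called, Dkk2 in B minus A reversed to 0.173 without A replicate 2 and was -2.039 without A replicate 1. Every total of called members stayed within 1.5 times its value. By direction, the 7 falls of C3 minus C1 became 3 without C1 replicate 1, 4 without C3 replicate 2 and 4 under quantile normalization, the 9 rises of C2 minus C1 became 14 under quantile normalization, and the 5 rises of C1 minus A became 3 with the 4 libraries compared alone. Leaving out 1 library gave 13 to 17 members for B minus A, 12 to 13 for C1 minus B, 12 to 17 for C1 minus A, 7 to 10 for C2 minus C1, 10 for C3 minus C2, 9 to 12 for C3 minus C1 and 22 to 30 in the F test. Where that leaves a type with 1 library, it is assumed to vary like the other types. Other pathway genes called in C2 minus C1 numbered 11 to 16, against 20. Fitting only the 4 libraries compared, which drops C3 from the first 4 comparisons, lost 10 calls (of Dkk3, Fzd4, Fzd6, Fzd8, Rspo3, Sfrp1, Sfrp2 and Wnt11) and gave 11, 15, 12 and 13 members in these. Quantile normalization lost 4 calls, all of C3 (Fzd1, Sfrp1 and Tcf7l1), a pseudocount of 5 lost those of Sfrp2 in C1 minus A and C1 minus B, and no filter that of Rspo3 in C3 minus C1. The cause was not tested. Same-numbered replicates did not deviate together (correlations of -0.06 to 0.09 over genes). With 1 gap per type this cannot exclude a shared origin, so whether the numbers pair libraries is not known. The fit with a replicate block kept all 76 calls, with 14 members in B minus A, 14 in C1 minus B, 15 in C1 minus A, 10 in C2 minus C1, 10 in C3 minus C2, 13 in C3 minus C1 and 26 in the F test. Depth limits the low members, since one without a read in B or C2 could lie anywhere under 6.88 or 6.12 normalized reads.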
